A study of Mus musculus with 6 samples.

Results

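The promoters of 5 genes of bone morphogenetic protein (BMP) signalling were described, those of the ligand genes Bmp2, Bmp4 and Bmp7 and of the homeobox genes Msx1 and Msx2. They were picked by gene symbol, each symbol had a single row, and they make up 5 of the 235 promoters in the deposited table. Chromatin accessibility had been measured by ATAC-seq, in which the transposase Tn5 cuts and tags open DNA, in bulk tissue 1 day after amputation. The samples were limb explants from mice of the outbred CD-1 stock, genotype WT, kept either at an air-liquid interface (ALI, 3 libraries) or in 96-well plates (3 libraries). All 6 libraries share genotype, tissue and time, and no drug or transgene is named. The series concerns how oxygen is sensed when limbs begin to regenerate, and the comparison asks how these promoters differed between the cultures. Per the labels, 4 limbs of each culture were collected. Whether the libraries of a culture came from separate limbs or animals is not stated, so the spread behind each p-value may be technical. Age and limb position (fore or hind) are not given.

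BMP ligands are secreted proteins that bind paired type I and type II receptor kinases, which phosphorylate the transcription factors Smad1, Smad5 and Smad9. These enter the nucleus with Smad4 and switch on target genes, of which Msx1 and Msx2 are textbook examples. In the limb bud, Bmp2, Bmp4 and Bmp7 are made in the apical ectodermal ridge and in mesenchyme, where BMP signalling shapes the ridge, the digits and the death of interdigital cells. Msx1 and Msx2 encode closely related homeodomain repressors found in distal limb mesenchyme and at digit tips.

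Each row was a 2000 bp window centred on a transcription start site (TSS), cut into 100 bins of 20 bp, with GRCm39 named in the submitters' processing notes. Bmp2 lies on chromosome 2, plus strand, with its TSS at 133394080 (window 133393080 to 133395079). Bmp7 lies on the same chromosome, minus strand, with its TSS at 172782115 (window 172781116 to 172783115). Bmp4 has its TSS at 46628127 of chromosome 14, minus strand (window 46627128 to 46629127). Msx1 has its TSS at 37981928 of chromosome 5, minus strand (window 37980929 to 37982928), and Msx2 at 53627111 of chromosome 13, minus strand (window 53626112 to 53628111). Each window holds upstream sequence and the first 1000 bp of the gene. No annotation of that build was used, so exons within the windows are not placed.

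RefSeq promoter sequences (build GRCm38.p6) matched 3 of the 5 genes, Bmp4, Msx1 and Msx2. They are shown because the ATAC-seq signal lay differently over this stretch. That of Msx1 covered it, and that of Msx2 lay mostly downstream of it. Bmp4 had 13.9 in ALI and 17.3 in 96-well from −100 bp to the TSS. From −200 to −100 bp it had only 7.28 and 8.32. The 250 bases before the RefSeq start are printed 5′ to 3′ on the gene's strand, with motif matches in capitals. They correspond to chr14:46390670-46390919, chr5:37824586-37824835 and chr13:53472781-53473030, all on the minus strand. Since the builds differ, it was not checked whether the RefSeq starts are the bases used in the deposited table.
Bmp4: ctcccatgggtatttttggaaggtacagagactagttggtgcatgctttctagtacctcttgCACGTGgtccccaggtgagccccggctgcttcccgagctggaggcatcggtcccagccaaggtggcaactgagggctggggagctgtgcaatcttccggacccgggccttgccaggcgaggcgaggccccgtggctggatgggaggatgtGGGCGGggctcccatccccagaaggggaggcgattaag
Msx1: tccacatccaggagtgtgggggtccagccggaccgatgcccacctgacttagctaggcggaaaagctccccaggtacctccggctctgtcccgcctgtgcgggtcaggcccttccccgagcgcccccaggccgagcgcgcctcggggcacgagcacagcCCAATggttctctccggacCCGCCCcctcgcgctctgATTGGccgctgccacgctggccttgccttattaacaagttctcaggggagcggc
Msx2: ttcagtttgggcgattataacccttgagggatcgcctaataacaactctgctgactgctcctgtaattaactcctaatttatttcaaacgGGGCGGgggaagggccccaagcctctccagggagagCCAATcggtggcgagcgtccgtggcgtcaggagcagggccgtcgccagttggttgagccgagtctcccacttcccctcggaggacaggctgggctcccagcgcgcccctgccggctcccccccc

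The motifs searched on both strands were the GC box GGGCGG, the CCAAT box CCAAT, the TATA box TATAAA, the GC element bound by BMP-activated Smads GGCGCC, the Smad motifs CAGAC and GTCTAGAC, the homeodomain motif TAATTG and the hypoxia response core ACGTG. Only these exact strings were counted, so other forms of a motif, including the hypoxia response core, would be missed. All 3 stretches held 1 GC box, which 32.7% of 32851 RefSeq promoters hold in the same 250 bases. Msx1 had 2 CCAAT boxes and Msx2 had 1 (33.8% of promoters have any). Bmp4 had ACGTG starting at −188 and −187, which is a single CACGTG palindrome read on both strands (ACGTG occurs in 16.6% of promoters). TATAAA (12.4% of promoters), GGCGCC (9.59%), CAGAC (42.2%), GTCTAGAC (0.167%) and TAATTG (7.17%) had no match in these windows. GC content was 63.2% in Bmp4, 68% in Msx1 and 61.6% in Msx2, with 11, 20 and 16 CpG dinucleotides, against medians of 52.4% and 6 over all RefSeq promoters.

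The values are signal, that is read coverage that the authors normalized to sequencing depth. Relative depth, taken from the size of the smallest step in the signal, spanned a 1.68-fold range over the libraries, and mean coverage of the 5 windows ran from 41.6 to 278.6 reads per base. In level, 96-well replicate 3 and ALI replicate 2 stood above the other libraries of their culture. Their median log2 deviations from the promoter means were 0.20 and 0.38, against −0.23 to −0.02 in the other 4. Of the marker genes of limb mesenchyme, cartilage, muscle, endothelium and blood, 0 were among the 235 promoters, so these cell types could not be checked. Of 10 limb ectoderm and ridge genes, 7 were in the table, and their summed signal overlapped between the cultures (37.1 to 49.7 in ALI, 36.7 to 52.7 in 96-well). In bulk tissue, more cells with an open promoter and a more open promoter per cell cannot be told apart.

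By mean window signal over the 6 libraries, Bmp7 was the highest of the 5 promoters and Bmp4 the lowest, with Msx2 beside it. In the 96-well libraries alone Msx2 was below Bmp4 (7.63 against 8.11). In the central 400 bp Msx2 was the lowest (7.53, against 13.8 at Bmp4). All 5 had signal in all 6 libraries. Mean window signal of Bmp7 was 16.1, 24.3 and 16.04 in ALI replicates 1 to 3 and 16.7, 13.9 and 23.8 in the 96-well replicates. It ranked 58 of 235 promoters. Msx1 gave 10.2, 16.1 and 12.01 in ALI and 10.99, 10.5 and 17.7 in 96-well, and Bmp2 gave 10.5, 15.9 and 10.6 in ALI and 9.81, 12.2 and 18.0 in 96-well. These ranked 103 and 105. Msx2 gave 6.98, 9.85 and 8.28 in ALI and 5.78, 6.71 and 10.4 in 96-well (rank 139), and Bmp4 gave 6.47, 7.72 and 6.35 in ALI and 6.43, 7.31 and 10.6 in 96-well (rank 144). The groups overlapped at each of the 5 promoters (5.96% of the table did not overlap), and the highest 96-well value was always in replicate 3 and the highest ALI value always in replicate 2.

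**Figure D1:**
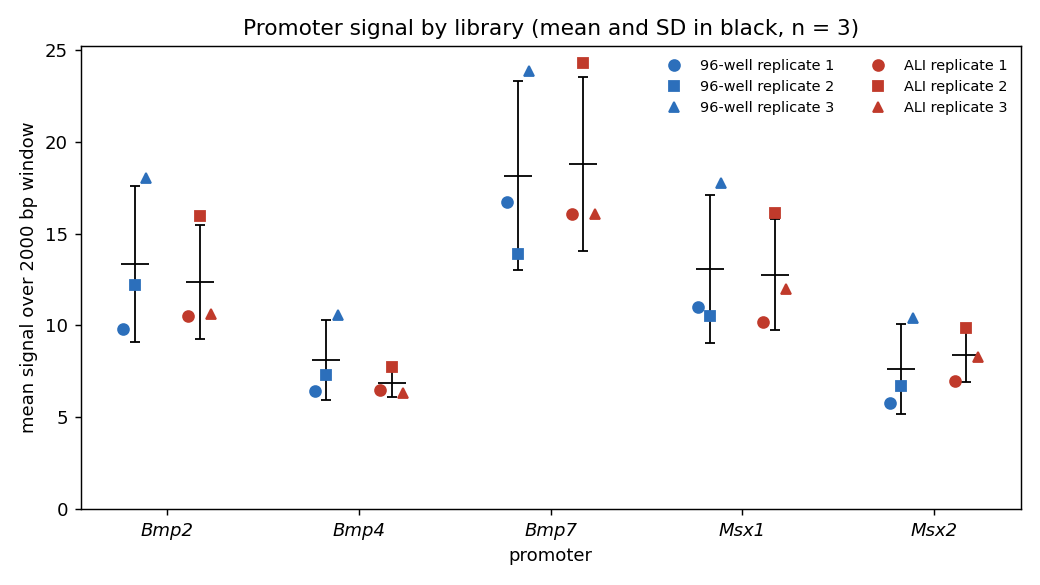
Mean depth-normalized signal over the 2000 bp window (y axis) of each promoter (x axis) in each library, with circles, squares and triangles for replicates 1, 2 and 3, blue for 96-well and red for ALI, and mean ± SD (n = 3) in black. Bmp7 is highest, up to 24.3, Bmp4 and Msx2 stay at or below 10.6, and the cultures overlap at all 5.

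Levels were compared between promoters within libraries, which is possible because all windows have the same length. Over 10 pairs, 8 differed by an exact two-sided sign-flip permutation test on log2 signal (p = 0.03125, the smallest that 6 libraries allow; Benjamini-Hochberg adjusted p = 0.039). Bmp7 exceeded Msx1, the next in order, by 0.48 ± 0.11 log2 units (SD, n = 6 libraries), and did so in 6 of 6 libraries. In the central 400 bp Bmp7 did not pass the test against Msx1 or Bmp2 (exact permutation p = 0.0625 for each). Msx1 and Bmp2 were neighbours that did not differ beyond their spread, with a difference of 0.01 ± 0.13 and either of them higher in 3 of 6 libraries (exact permutation p = 0.97). Bmp2 exceeded Msx2 by 0.61 ± 0.16 in 6 of 6. Msx2 and Bmp4 again did not separate (0.08 ± 0.20, each higher in 3 of 6, exact permutation p = 0.44). The order therefore did not split ligands from Msx genes, since each set held a member of the middle and of the lowest level.

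As sets, the ligand promoters had slightly more signal than the Msx promoters in each library, but this was not shared by all 3 ligands. Only Bmp7 exceeded both Msx1 and Msx2 in 6 of 6 libraries, by 0.48 and 1.10 log2 units on average. Bmp2 minus Msx1 and Msx2 was −0.01 and 0.61, and Bmp4 minus Msx1 and Msx2 was −0.70 and −0.08. The mean log2 signal of the 3 ligands minus that of the 2 Msx genes was 0.26, 0.19 and 0.05 in ALI replicates 1 to 3 and 0.32, 0.32 and 0.27 in the 96-well replicates. All ALI values were below all 96-well values, but ALI replicate 1 (0.26) lay close to 96-well replicate 3 (0.27). This score over chosen members was not tested between the cultures. In the central 400 bp the difference was larger, at 0.61 ± 0.16 (SD, n = 6) against 0.23 ± 0.10 over whole windows, and there the cultures overlapped (0.33 to 0.73 in ALI, 0.50 to 0.71 in 96-well). The central 400 bp of Msx2 lay 1.95 ± 0.24 log2 units below that of Msx1, whereas over whole windows the gap was 0.62 ± 0.13.

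The bin profiles set Msx2 and Bmp7 apart from the rest more clearly than the levels did. Msx1 had a single peak at −50 bp in the mean profile of the 6 libraries (43.8 at its highest bin), close to the start site, and by library its highest bin lay between −90 and −10 bp. Of the 235 promoters, 117 (49.8%) had their highest mean bin within 100 bp of the TSS. In the mean profile Bmp2 had its highest bin at 10 bp (37.3), a neighbouring summit at 90 bp that reached 94.2% of it and a further one at 270 bp that reached 57.4%. By library its highest bin lay at 10 bp in 3 (96-well replicates 1 and 3 and ALI replicate 3) and at 110 bp in the other 3. Its signal ran on downstream: 29.3 ± 3.07% (SD, n = 6) of its window signal lay upstream of the TSS. Bmp4 had a low, broad profile with summits at −10, 110 and 310 bp, of which the last reached 85.8% of the first, and its highest bin moved between −30 and 330 bp over the libraries. Its width at 50% of peak height was 613 ± 84.5 bp (SD, n = 6).

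Msx2 had little signal at its annotated start and its peak beyond it. Its highest bin lay at 250 bp in 5 libraries and at 230 bp in ALI replicate 3, with 26.2, 47.1 and 40.7 in ALI replicates 1 to 3 and 22.0, 24.7 and 46.1 in the 96-well replicates. From 200 to 300 bp the ALI signal was 33.3 ± 9.48 (SD, n = 3) and the 96-well signal 27.7 ± 12.2. From −100 bp to the TSS they were 4.43 ± 1.23 and 4.22 ± 1.82. Only 16.7 ± 3.46% (SD, n = 6) of the Msx2 signal lay upstream of the TSS, against 40.6 ± 2.58% for Msx1. The ratio of the 500 bp upstream to the 500 bp downstream was 0.232, 0.148 and 0.174 in ALI and 0.136, 0.175 and 0.156 in 96-well, against a median of 0.889 over all promoters. A highest bin 200 bp or more downstream was found at 49 promoters (20.9%), weak ones included, so the position of that bin at Msx2 is not rare. Its upstream-to-downstream ratio, however, ranked 230 of 235 from the highest. The stretch printed above for Msx2 therefore lies, if the start sites coincide, in the part with little signal.

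Bmp7 was the only member with more signal upstream than downstream in all 6 libraries. It had 2 summits, one at −50 bp and an upstream one at −290 bp that reached 74.6% of it in the mean profile. Picked in each library, the upstream one lay between −330 and −250 bp. In ALI replicate 2 it was not distinct. There the signal was 65.8 at −250 bp, 60.5 at −230 bp and 67.7 on average from −200 to −100 bp. The upstream summit relative to the summit at the TSS was 0.726, 0.751 and 0.788 in ALI replicates 1 to 3 and 0.727, 0.767 and 0.785 in the 96-well replicates, and these ranges overlapped. The dip between them lay between −230 and −170 bp and held 74.1% to 91.9% of the lower summit.

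**Figure D2:**
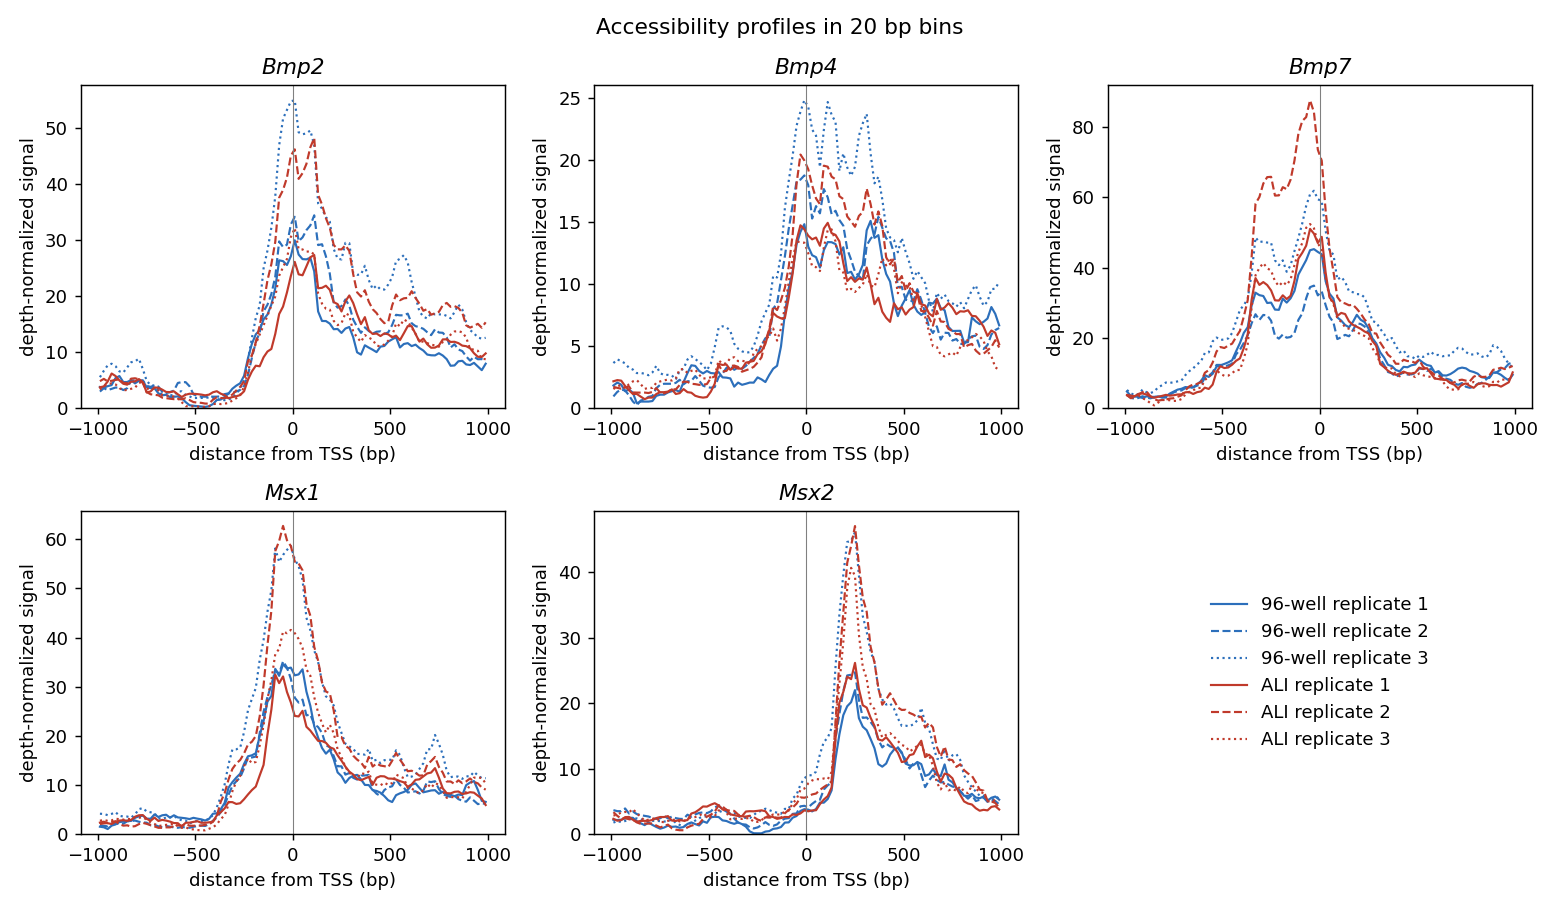
Depth-normalized signal (y axis) in 20 bp bins against distance from the TSS in bp (x axis) for each promoter, with a line per library (blue 96-well, red ALI; solid, dashed and dotted for replicates 1, 2 and 3). Each panel has its own y axis. Bmp7 shows 2 summits upstream of the TSS (not distinct in ALI replicate 2), Bmp4 a low plateau with 3 summits, and Msx2 a peak at 250 bp with little signal at the TSS.

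The profiles were stable between libraries. Pearson correlations over the 100 bins (log2 signal), given as a description since bins share reads, had medians over 15 library pairs of 0.94 (Msx2) to 0.97 (Bmp7). Between promoters, the most alike profiles were those of Bmp2 and Bmp4 (r = 0.89) and of Bmp4 and Msx1 (r = 0.88). The Msx genes were less alike (r = 0.47), and Bmp7 and Msx2 least (r = 0.14). Likeness did not follow the division into ligands and targets. Among all 235 promoters, Zranb2 (r = 0.98) and the Wnt enhancer gene Rspo2 (r = 0.97) had the profiles closest to Bmp4. Crebzf and Gm8066 came closest to Bmp2 (r = 0.94 and 0.92), Phf13 and Pknox1 to Bmp7 (0.96 and 0.95), Bcor and Flrt3 to Msx1 (0.96 and 0.95), and Myl12a and Rabep2 to Msx2 (0.92 and 0.89).

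Between the cultures, no member's window signal differed beyond the spread of libraries on the deposited scale. The changes, ALI minus 96-well in log2(signal + 1.06), were −0.09 ± 0.30 (SE) at Bmp2, −0.19 ± 0.24 at Bmp4, 0.05 ± 0.33 at Bmp7, −0.02 ± 0.30 at Msx1 and 0.14 ± 0.24 at Msx2. The limma test over all 235 promoters, with Benjamini-Hochberg adjustment, gave adjusted p between 0.85 and 0.98 for these 5. It called 0 of the 5, where 0% of the table was called (7 of 235 promoters had an unadjusted p below 0.05, none of them a member). The 95% intervals were wide, −0.67 to 0.50 at Bmp2 and −0.66 to 0.27 at Bmp4, so changes of that size were not detectable. Without 96-well replicate 3 the changes of Bmp2 and Msx1 were 0.14 and 0.20, and without ALI replicate 2 that of Bmp7 was −0.13.

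After each library was centred to a common median level, the ligand promoters of Bmp4 and Bmp2 were lower in ALI, while Bmp7, Msx1 and Msx2 did not pass the test. This scaling moved the median change of all promoters from 0.14 to −0.03 log2 units. Centred log2 signal of Bmp4 was 3.01, 2.75 and 2.91 in ALI replicates 1 to 3 and 3.14, 3.26 and 3.35 in the 96-well replicates, with no overlap. Its change was −0.36 ± 0.10 (SE; limma adjusted p = 0.0045). Bmp2 had 3.63, 3.71 and 3.57 in ALI and 3.68, 3.93 and 4.06 in 96-well, which overlap, since ALI replicate 2 exceeded 96-well replicate 1. Its change was −0.25 ± 0.09 (limma adjusted p = 0.027). Both calls rest on few libraries and on the variance model: limma without a mean-variance trend gave adjusted p = 0.070 for Bmp4 and 0.18 for Bmp2, and quantile normalization 0.063 and 0.084. With equal flank signal Bmp4 was called (limma adjusted p = 0.026) and Bmp2 was not (0.13). There 31.1% of all promoters were called, 6.38% as lower. The Bmp4 call was lost without ALI replicate 2 (limma adjusted p = 0.052). The Bmp2 call was lost without 96-well replicate 2 (0.14), 96-well replicate 3 (0.20), ALI replicate 1 (0.054) or ALI replicate 3 (0.14).

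The centred changes of the other members were −0.11 ± 0.09 at Bmp7 (limma adjusted p = 0.41), −0.19 ± 0.09 at Msx1 (adjusted p = 0.12) and −0.03 ± 0.10 at Msx2 (adjusted p = 0.90). Msx1 did not overlap between the cultures, with 3.587 to 3.726 in ALI and 3.728 to 4.037 in 96-well, a narrow gap, and nor did Bmp4 (17.4% of promoters were lower in ALI without overlap). Of the members, 2 of 3 ligands and 0 of 2 Msx promoters were called lower, where 10.2% of all promoters were, and 0 of 5 were called higher, where 11.5% were. The median change was −0.25 over the 3 ligands, −0.11 over the 2 Msx genes and −0.03 over all promoters. Quantile normalization gave −0.23 to −0.29 for the 3 ligands, −0.20 for Msx1 and 0.13 for Msx2, with 0 of 5 called (16.2% of all promoters). At Bmp7 and Msx2 the direction depended on the scale, at Bmp7 positive on the deposited values and negative under all 3 other scalings, at Msx2 negative after centring and positive under the other 2.

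In the central 400 bp after centring, Bmp2 had a change of −0.45 ± 0.12 (SE; limma adjusted p = 0.0013) and Bmp4 of −0.44 ± 0.13 (adjusted p = 0.0085), both without overlap of the groups. There 25.5% of promoters were called, 11.5% of all as lower, and 17.4% were lower without overlap. Bmp7 stood at 0.05 ± 0.11 and Msx1 at −0.26 ± 0.11 (limma adjusted p = 0.79 and 0.068). Msx2, whose peak lies outside this region, had −0.19 ± 0.16. On the deposited scale the same region gave −0.21 and −0.19 for Bmp2 and Bmp4 and 0.29 for Bmp7, and limma called 0 promoters (7 of 235 with an unadjusted p below 0.05).

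A ratio taken within a window does not depend on the scale factor of a library, apart from the pseudocount, and on the ratio of centre to flanks Bmp2 and Bmp7 differed in direction, without passing the test. The central 400 bp held 6.56, 8.14 and 7.21 times the signal of the outer 200 bp on each side at Bmp7 in ALI replicates 1 to 3, and 5.30, 3.86 and 4.58 times in the 96-well replicates. Every ALI library was above every 96-well library. At Bmp2 the ratio was 2.44, 3.30 and 2.91 in ALI and 3.47, 3.95 and 3.61 in 96-well, and every ALI library was below every 96-well library. In log2 units, with the pseudocount in both terms, the change was 0.62 ± 0.22 (SE) at Bmp7 and −0.33 ± 0.25 at Bmp2. Neither passed limma over 235 promoters (adjusted p = 0.063 and 0.39), where 11.5% were called. The median over all promoters was 0.24, and groups without overlap were found higher in ALI at 24.7% of promoters and lower at 3.83%. Taken over all promoters of a library, the ratio was itself higher in ALI without overlap. It was 5.17, 6.27 and 5.63 in ALI replicates 1 to 3 and 4.57, 4.70 and 5.09 in the 96-well replicates. Whether the change at Bmp7 goes beyond this library-wide difference was not tested.

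Bmp4, Msx1 and Msx2 had ratios that overlapped between cultures, with changes of 0.05, −0.04 and 0.09 log2 units. Bmp4 had 2.85, 4.81 and 3.23 in ALI and 2.63, 4.46 and 3.14 in 96-well. Msx1 had 4.14, 7.02 and 4.98 in ALI and 4.94, 5.70 and 5.70 in 96-well. At Msx2, 1.86, 1.79 and 1.89 in ALI lay within the 96-well range of 1.26 to 2.73. With the 400 bp placed around each promoter's highest segment, a region chosen after the data were seen, the difference was 0.21 at Msx2 and 0.67 at Bmp7 (limma adjusted p = 0.64 and 0.064, with 5.96% of promoters called). The Bmp7 change was called in 2 alternatives that also called more of the table. Without ALI replicate 1 it was 0.70 (limma adjusted p = 0.026, 25.1% of promoters called), and without the 59 weakest promoters it was 0.62 (adjusted p = 0.044, 18.8% called). It was not called without any of the other 5 libraries (limma adjusted p from 0.068 to 0.33, the highest without 96-well replicate 2). Nor was it called with the replicate block (0.14), the larger pseudocount (0.18) or no mean-variance trend (0.082).

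The width of the Bmp7 peak did not overlap either. Its width at 50% of peak height was 500, 400 and 440 bp in ALI replicates 1 to 3 and 640, 700 and 620 bp in the 96-well replicates. Widths that were lower in ALI without overlap occurred at 8.51% of promoters. The highest bin lay at −50 bp in all 3 ALI libraries and at −30 bp in all 3 96-well libraries, a step of 1 bin, and a position further upstream in ALI without overlap occurred at 2.98% of promoters. The central 400 bp had 35.7, 56.9 and 36.3 in ALI against 33.7, 25.4 and 45.7 in 96-well, and the flanks 5.44, 6.99 and 5.03 against 6.36, 6.60 and 9.99, so that each part overlapped between the cultures on the deposited scale. The widths of the other 4 promoters overlapped between cultures.

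The balance of upstream and downstream signal differed in opposite directions at Bmp7 and Msx1, with no overlap of the groups at either and neither past the threshold. At Bmp7 the ratio of the 500 bp upstream to the 500 bp downstream was 1.54, 2.11 and 1.71 in ALI and 1.41, 1.26 and 1.43 in 96-well. At Msx1 it was 0.772, 0.895 and 0.824 in ALI and 1.002, 0.984 and 0.991 in 96-well, so that each ALI library lay below the narrow 96-well range. The log2 changes were 0.36 ± 0.11 (SE; limma adjusted p = 0.056) and −0.24 ± 0.09 (adjusted p = 0.12), in a table with 10.2% called. Groups without overlap were higher in ALI at 14.9% and lower at 16.2% of promoters. With 1000 bp on each side, the Bmp7 change was 0.37 ± 0.11 and was called (limma adjusted p = 0.031, 11.5% of promoters called). With 500 bp it was called when ALI replicate 1 was left out (0.46, limma adjusted p = 0.015, 11.5% called) and not when any of the other 5 libraries was (adjusted p from 0.10 to 0.16). Without ALI replicate 2 it was 0.24 (limma adjusted p = 0.16), and without a mean-variance trend the adjusted p was 0.14. Bmp2 had a change of −0.27 (limma adjusted p = 0.18), with 0.378, 0.450 and 0.517 in ALI and 0.626, 0.512 and 0.514 in 96-well. With 1000 bp on each side, Bmp2 (−0.27) and Msx1 (−0.23) had no overlap and were not called (limma adjusted p = 0.15 for each). There 11.9% of promoters were lower in ALI without overlap. The changes of Bmp4 (0.10) and Msx2 (0.11) had overlapping groups.

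**Figure D3:**
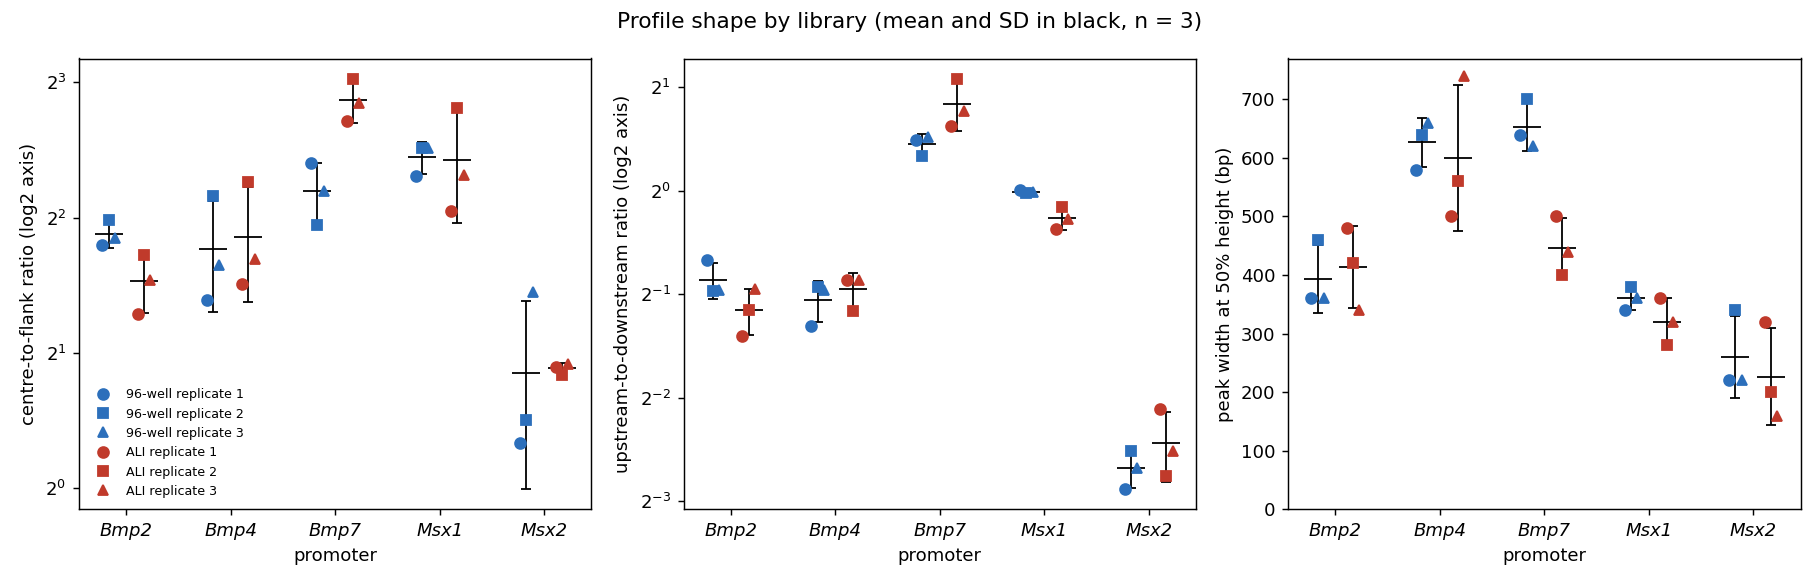
Shape of the profile at each promoter (x axis) by library, as the ratio of central 400 bp to flanks (left, log2 axis), the ratio of 500 bp upstream to 500 bp downstream (middle, log2 axis) and the width at 50% of peak height in bp (right). Symbols and colours mark libraries and mean ± SD (n = 3) is in black. At Bmp7 the red ALI points lie above the blue 96-well points in the first 2 panels and below them in the third, while at Msx1 they lie below in the middle panel.

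**Figure D4:**
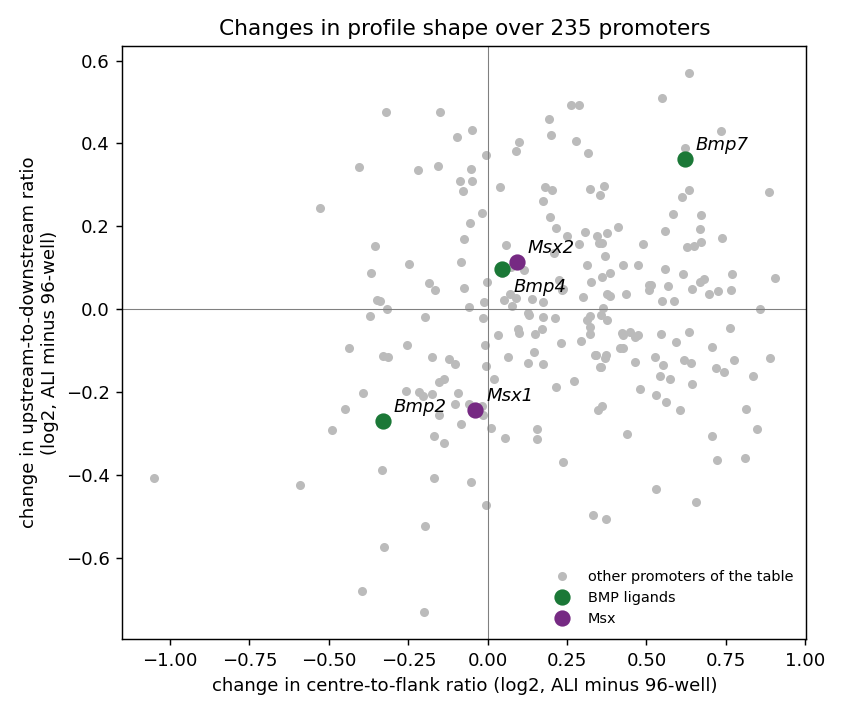
Change in the centre-to-flank ratio (x axis) against change in the upstream-to-downstream ratio (y axis), both ALI minus 96-well in log2 units, for 235 promoters, with BMP ligands in green, Msx genes in purple and the others in grey. Bmp7 lies at 0.62 and 0.36, Bmp2 at −0.33 and −0.27, and the other 3 nearer the middle of the cloud.

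To place the differences within the windows, signal was tested in 100 bp segments, 20 per promoter and 4700 in all. On the deposited scale limma called 6 segments (0.128%), all lower in ALI, and 0 of the 100 member segments. Of the member segments, 2 had an unadjusted p below 0.05 by limma (7.28% of all did), at Bmp7 from −800 to −700 bp and at Msx2 from −300 to −200 bp. After centring, 388 segments (8.26%) were called, 191 higher and 197 lower (4.06% and 4.19%), and 13 of the 100 member segments, all of them lower. These 13 were 7 at Bmp7 and 2 each at Bmp2, Bmp4 and Msx1, with 0 at Msx2. With any 1 library left out, between 3 and 7 member segments were called (135 to 392 of all 4700). With the replicate block 10 were called, all lower (5.13% of all segments were called, 3.11% lower). Quantile normalization called 8, all lower (5.96% of all, 2.98% lower). Equal flank signal called 9, of which 8 were lower (9.81% of all, 3.19% lower). Neighbouring segments share reads, and without a mean-variance trend limma called 0 member segments (0.128% of all).

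At Bmp2 the called segments were the 200 bp just upstream of the TSS. From −200 to −100 bp the signal was 9.01, 18.8 and 14.9 in ALI and 15.7, 16.3 and 24.0 in 96-well. The centred change was −0.57 ± 0.15 (SE; limma adjusted p = 0.0092), and that of the next segment, to the TSS, was −0.49 ± 0.14 (adjusted p = 0.014). Both calls held after quantile normalization (limma adjusted p = 0.014 and 0.00028) and with equal flank signal (0.019 and 0.033), and both were lost without ALI replicate 1. The second was lost without 96-well replicate 3 as well. ALI replicate 1 had the lowest signal of all libraries in both segments.

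At Msx1 the called segments also lay upstream, from −300 to −100 bp. From −300 to −200 bp the signal was 7.33, 16.6 and 13.3 in ALI and 14.01, 13.4 and 21.7 in 96-well, and the centred log2 difference was −0.58 ± 0.16 (limma adjusted p = 0.011), a call that was lost without ALI replicate 1 and held in the 5 other cases. The segment from −200 to −100 bp changed by −0.45 ± 0.14 (adjusted p = 0.027), and this call held in only 1 of the 6 cases in which a library was left out, the one without ALI replicate 2. Downstream of the TSS no Msx1 segment was called.

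At Bmp7 the outer parts of the window were lower in ALI and the peak was not. The 4 segments from 600 to 1000 bp changed by −0.66, −0.68, −0.60 and −0.51 (limma adjusted p = 0.010, 0.0078, 0.021 and 0.045). Upstream, the segment from −800 to −700 bp changed by −0.81 ± 0.25 (adjusted p = 0.020), that from −700 to −600 bp by −0.63 (0.035) and that from −500 to −400 bp by −0.45 (0.047). From −300 bp to the TSS the 3 changes were positive, 0.27, 0.34 and 0.24, and short of the threshold (limma adjusted p = 0.24, 0.10 and 0.30). None of the 7 calls held in more than 3 of the 6 cases in which a library was left out, and quantile normalization ended all 7 (limma adjusted p from 0.078 to 0.21). With equal flank signal 1 Bmp7 segment was called higher in ALI and 4 lower, where 6.62% and 3.19% of all segments were.

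At Bmp4 all 20 centred segment changes were negative, between −0.65 and −0.06, and 2 were called. From 300 to 400 bp, the region of the third summit, the signal was 9.29, 15.9 and 10.7 in ALI and 13.8, 14.2 and 19.6 in 96-well, a change of −0.56 ± 0.16 (limma adjusted p = 0.013). That call held after quantile normalization (adjusted p = 0.031) and in 2 of the 6 cases with a library left out, where adjusted p ran up to 0.055. From 900 to 1000 bp the change was −0.65 (limma adjusted p = 0.036), a call that quantile normalization ended (0.24). The call held in 1 of 6 cases, the one without ALI replicate 1. At Msx2, 12 of the 20 centred changes were negative and 8 positive, and the lowest adjusted p by limma was 0.35, from −300 to −200 bp, where the signal was low (2.74 ± 0.72 in ALI and 1.59 ± 1.53 in 96-well, SD, n = 3).

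**Figure D5:**
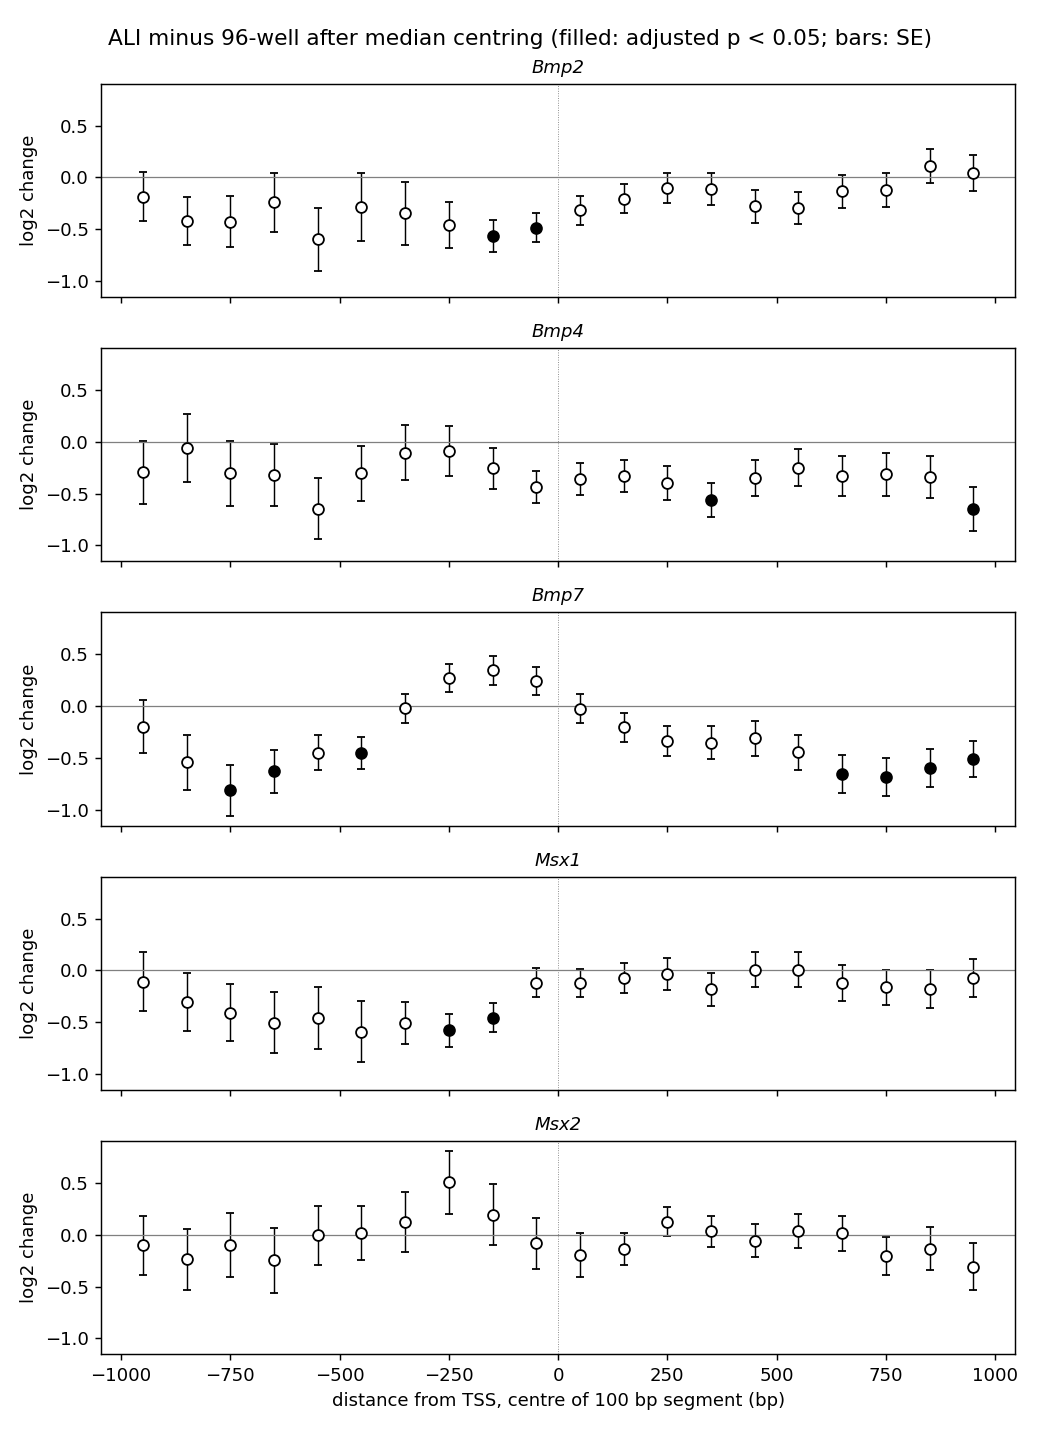
Centred log2 change, ALI minus 96-well (y axis), in each 100 bp segment against distance from the TSS in bp (x axis), with SE bars and filled points where the adjusted p of limma is below 0.05. Filled points lie upstream of the TSS at Bmp2 and Msx1, in the outer window at Bmp7 and downstream at Bmp4, and Msx2 has 0.

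Of 45 genes listed for the BMP pathway, 8 were in the table, the 5 members and Bambi, Dlx5 and Dlx6. Bambi encodes a membrane pseudoreceptor that dampens BMP signalling, and Dlx5 and Dlx6 encode homeodomain factors of the limb ectoderm. After centring, 2 of the 8 were called lower (Bmp2 and Bmp4) and 0 higher, where 10.2% and 11.5% of all promoters were. With the replicate block or equal flank signal 1 of the 8 was called lower (8.94% and 6.38% of all promoters were). After quantile normalization or without a mean-variance trend 0 of the 8 were called lower (8.09% and 0% of all promoters were). The list's median change was −0.15, against −0.03 over all promoters. Bambi had a strong promoter signal, 36.4 ± 10.1 in ALI (SD, n = 3) and 29.3 ± 6.42 in 96-well. Its centred change was 0.12 (limma adjusted p = 0.41). Its centre-to-flank ratio was higher in ALI by 0.56 ± 0.17 log2 units (SE; limma adjusted p = 0.022), which was called, as were 11.5% of promoters. That call was lost without 96-well replicate 2 (adjusted p = 0.056), 96-well replicate 3 (0.12) or ALI replicate 3 (0.070), with the block (0.052), the larger pseudocount (0.082) or no trend (0.11). Dlx6 had a centred change of −0.19 and Dlx5 of −0.07 (limma adjusted p = 0.11 and 0.64). In the centred central 400 bp, where 25.5% of promoters were called and 11.5% were called lower, 3 of the 8 were called lower, Bmp2, Bmp4 and Dlx6, the last with −0.53 ± 0.15 (limma adjusted p = 0.0032).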

How the data were processed

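ATAC-seq signal of 6 mouse limb explant libraries was analysed, 3 per culture. The authors deposited signal, that is depth-normalized coverage averaged by deepTools in 20 bp bins around the TSS with rows of zeros skipped, per the file headers. The submitters' processing notes name deepTools 3.5.1, Picard, SAMtools 1.16.1, Bowtie2 2.5.1, Trim Galore 0.6.10 and the build GRCm39, with no role or order. Any Tn5 shift or duplicate filter, and the formula of the depth normalization, are not given in the sources used here. Tn5 shifts are smaller than 1 bin. How the 235 genes were selected is not given either.

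Bins were averaged over windows, the central 400 bp, the flanks (200 bp each side), 500 bp sides and 100 bp segments, and taken as log2(signal + 1.06), the pseudocount being 0.1 of the median promoter signal. limma 3.58.1 (R 4.3.3; eBayes with a mean-variance trend) was fitted on every promoter or segment, with Benjamini-Hochberg adjustment at 0.05. It was also tested on simulated data in which every promoter had the same spread. That setting cannot show how the calls depend on the variance model. For window signal the prior degrees of freedom of limma were infinite on the deposited, centred and equal-flank scales, so there the trend set each variance. They were 2.05 after quantile normalization and 5.37 after centring without trend. Median centring subtracted each library's median deviation from the promoter means. Alternatives were other pseudocounts (0.01 and 0.5 of the median), a low-signal filter, other scalings and regions, a replicate block, no trend, and leaving out libraries. Named promoters were the members, BMP pathway genes and the 2 nearest profiles of each member. Members and lists were chosen with earlier results of these data known. In each library 100% of the distinct bin values below 1 were whole multiples of a fitted smallest step, to within 0.1 of it. Total depth is unknown, so errors are spreads between libraries. No 2 libraries were identical.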

Additional observations from a re-analysis of the deposited data

How the results depend on the processing

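On the deposited scale 0 promoters were called by limma, also with each library left out (0 to 0), and the other scalings called 51 (median centring, 23 to 51 with a library left out), 38 (quantile normalization) and 73 (equal flank signal). Centring of the central 400 bp called 60, and centring without trend 0 (65 with an unadjusted p below 0.05). For the centre-to-flank ratio 27 promoters were called, against 8 with the larger pseudocount, 6 without trend, 14 around the highest segment and 13 to 59 with a library left out. For the upstream-to-downstream ratio 24 were called, 0 without trend (56 with an unadjusted p below 0.05) and 0 to 27 with a library left out, the 0 being without 96-well replicate 1 (59 unadjusted). Segments called numbered 6 on the deposited scale (1 to 11 with a library left out), 388 after centring (135 to 392), 280 after quantile normalization and 461 with equal flanks, and centring without trend gave 6. The cause of these shifts was not tested. The region around the highest segment, the central 400 bp for levels between members (7 of 10 pairs past the threshold against 8), centring without trend, and centring of segments with a block or a library left out were chosen after seeing the data.

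The window change of Bmp7 became −0.11 after centring, also without trend, −0.24 after quantile normalization and −0.049 with equal flanks. It ran from −0.13 to 0.26 with a library left out, and from −0.22 to −0.05 after centring. Msx2 became −0.025 after centring, with or without trend, and −0.19 in the centred central 400 bp (ranges −0.012 to 0.36 and, centred, −0.10 to 0.056). With a library left out Bmp2 ran from −0.27 to 0.14 and Msx1 from −0.19 to 0.20, while Bmp4 ran from −0.32 to −0.0067, the latter without 96-well replicate 3, and was below 0 under all 24 alternatives. For the centre-to-flank ratio, Bmp4 became −0.018 with the larger pseudocount and ran from −0.15 to 0.22 with a library left out, Msx1 became 0.021 with the central 200 bp (−0.25 to 0.13), and Msx2 ran from −0.10 to 0.40. Bmp2 and Bmp7 kept their direction under all 13. For the upstream-to-downstream ratio, Msx2 became −0.0049 with the larger pseudocount (−0.055 to 0.26 with a library left out), and the other 4 kept their direction under all 12. The ligand minus Msx level moved from 0.23 to 0.61 in the central 400 bp and ran from 0.22 to 0.27 with a library left out.

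Deviations from group means correlated at 0.67, −0.61 and −0.60 between libraries with replicate numbers 1, 2 and 3. The highest correlation was 0.81, between 96-well replicate 3 and ALI replicate 2. With 3 libraries per culture these deviations are tied to one another. Whether equal replicate numbers mark paired libraries therefore cannot be told. A replicate block called 0 promoters on the deposited scale, 39 after centring, 12 for the centre-to-flank ratio and 19 for the upstream-to-downstream ratio. Segments called were 4 with the replicate block and 241 with centring and the block. With the block and centring, Bmp7 was at −0.11, Msx2 at −0.025, Bmp4 was called (limma adjusted p = 0.0084) and Bmp2 was not (0.062).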
